A study of Mus musculus with 6 samples.

Results

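The genes described here encode the Fos, Jun and Atf3 members of AP-1, a transcription factor made of paired bZIP proteins: Fos, Fosb, Fosl1, Fosl2, Jun, Junb, Jund and Atf3. They were taken by name, and all 8 were found among 21887 protein-coding genes of the RefSeq table. The data are lists of p53 ChIP-seq summits, the single bases at which the authors' peak caller placed the top of each peak. A summit was counted for a gene if it lay inside the gene or within 50 kb of either end. This gave 6 of the 1668 summits of the WT list and 24 of the 6753 summits of the 3KR list. The cells were basal progenitors of mouse epidermis, sorted for high alpha-6 integrin and EpCAM from mice that were 8 weeks old. One genotype, p53WT, carried wild-type p53, and the other, p533KR, carried the 3KR form. The labels do not explain the name. It is generally used for a p53 whose DNA-binding domain has 3 lysines changed to arginine, which prevents their acetylation. Cells of both genotypes were digested in medium with 25 µM Nutlin-3a, which keeps MDM2 from degrading p53. The study set out to find the genes that each form of p53 binds in these cells. It has 3 libraries per genotype, but each genotype is represented by 1 combined list, so there is no spread between animals. The genotypes are therefore set side by side without a test, and the depth behind each list is unknown. The summit names of the 3KR list contain the word Doxo and those of the WT list end in the number 1. Whether the cells also differed in a treatment, or whether a list rests on fewer than 3 libraries, cannot be read from the labels.

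AP-1 binds DNA as a dimer. Fos proteins need a partner such as a Jun protein, Jun proteins also pair with each other, and Atf3 pairs with Jun proteins or with itself. The dimers read a short sequence, TGACTCA, or the cAMP response element TGACGTCA, and regulate genes of proliferation, wound repair and stress. In epidermis AP-1 is known for its part in keratinocyte growth and in the timing of differentiation, with Jun and Fosl1 acting in growth and Junb restraining it. Several of the genes are induced within minutes of growth factor or stress signals, and Atf3 is a gene known to respond to p53.

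Summits were found near all 8 AP-1 genes in the 3KR list and near 4 in the WT list. In WT the 4 were Fos, Fosl2, Jun and Junb, while 11.6% of all protein-coding genes had a WT summit at this distance. For 3KR the share over all genes was 42.2%. The median AP-1 gene had 0.5 WT summits and 2.5 3KR summits, against a median of 0 for all genes in either list. The 3KR list was 4.05 times as long as the WT list, and it held 4 times as many summits at these genes. The difference in number between the genotypes at AP-1 genes was thus about that of the whole lists. When the 3KR list was shortened by score to the 1668 highest summits, 8 summits at 5 AP-1 genes were left, and 15.1% of all genes had a summit. The 5 genes were Fos, Fosb, Fosl2, Jun and Atf3, and none of the summits of Fosl1, Junb or Jund was left. Closer to the genes, the shortened list had a summit within 10 kb of 1 AP-1 gene, Fosl2 (7.08% of all genes), and within 1 kb of 0 (5.06%).

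**Figure D1:**
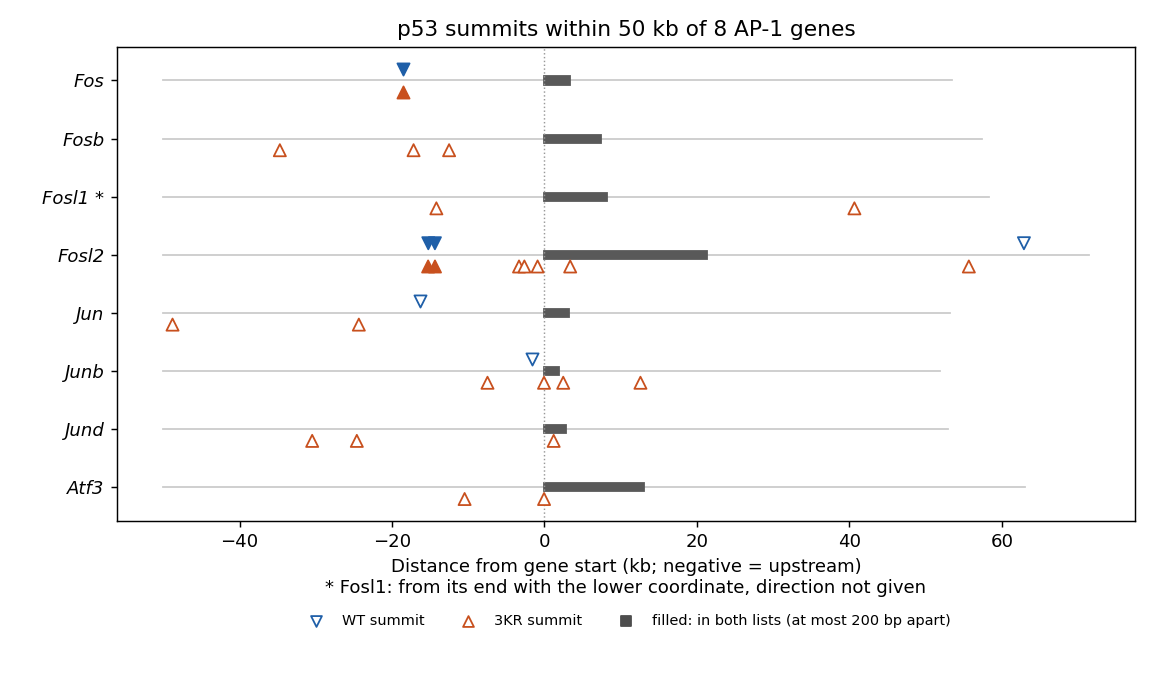
Position of every WT summit (downward triangles) and 3KR summit (upward triangles) within 50 kb of the 8 AP-1 genes, in kb from the gene start, with the gene as a dark bar and filled symbols for sites in both lists. The 6 WT summits lie at 4 genes, the 24 3KR summits at all 8, and the filled sites are those of Fos and Fosl2 between 14.4 and 18.6 kb upstream.

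Of the 24 3KR summits 6 lay inside an AP-1 gene or within 1 kb of its ends, and of the 6 WT summits 0. The mean number of 3KR summits per AP-1 gene was 0.75 within 1 kb and 3 within 50 kb. Over all genes these means were 0.216 and 0.725. In WT they were 0 and 0.75 per AP-1 gene, and 0.041 and 0.146 over all genes. Inside a gene or within 1 kb of its ends, 0 of the 8 had a WT summit (3.51% of all genes) and 4 had a 3KR summit, Fosl2, Junb, Jund and Atf3 (17.3% of all genes). Within 10 kb the WT count was 1, Junb (5.04% of all genes), and the 3KR count was again 4 (23.4%). The other sites were distal. Counted over all sites, near and distal together, most lay on the upstream side. Of the 6 WT summits 5 were upstream of the gene, 0 inside and 1 downstream. Over all 17492 protein-coding genes with a known direction, 39.2% of pairs of a gene and a WT summit were upstream and 24.1% inside. In the 3KR list 17 of 22 summits at AP-1 genes with a known direction were upstream, 2 inside and 3 downstream, against 43.1%, 19.8% and 37.1% over all such genes. A summit between genes enters these shares once for each of them, so the pairs are not independent, and the difference was not tested. The 8 AP-1 genes are 1840 to 21369 bp long, so most of each window lies outside the gene. The genes were not matched for length, and the part of length in these shares was not tested. Some of the upstream 3KR summits lay nearer to Ercc1, Lsm4 or Hook2 than to the AP-1 gene.

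**Figure D2:**
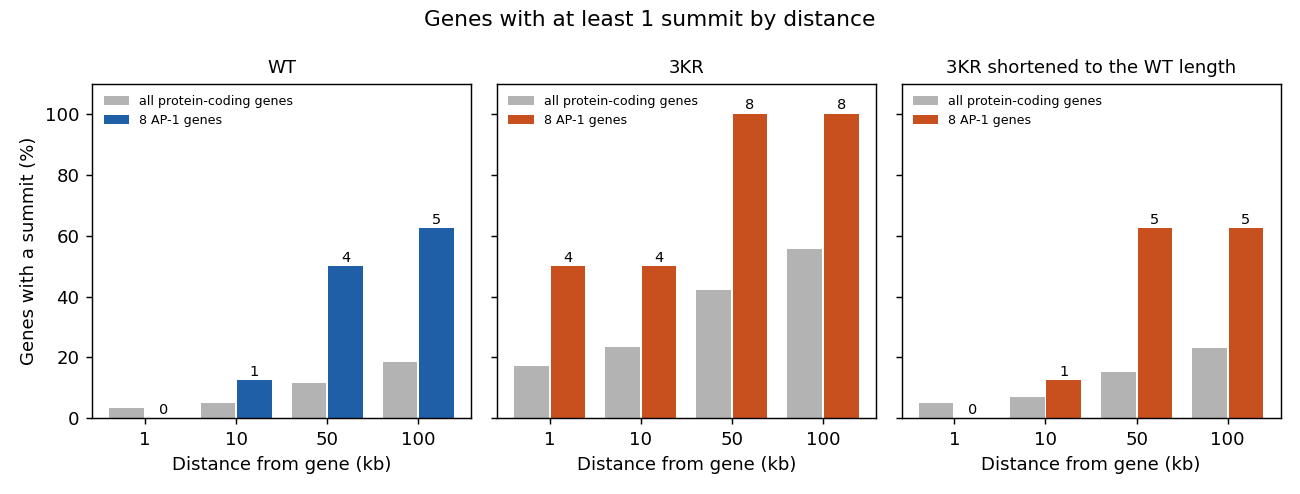
Percentage of all 21887 protein-coding genes (grey) and of the 8 AP-1 genes (coloured, with the number of genes above the bar) that had at least 1 summit inside or within 1, 10, 50 or 100 kb, in the WT list, the 3KR list and the 1668 highest summits of the 3KR list. Within 1 kb the number was 0 in WT and 4 in 3KR, and it was 0 in the shortened 3KR list. At 50 kb it was 4, 8 and 5.

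The promoter sequences show which of the summits fell on a start site. The RefSeq table (GRCm38.p6, the assembly behind mm10) gave 7 of the 8 genes a promoter of 300 bases, from 250 before to 50 after the start. A 3KR summit lay inside those of Junb and Atf3. The table has 32851 promoters of 27025 genes, not all of them protein-coding, so this background was not matched to the 7. Over all 32851 promoters 5.21% held a 3KR summit and 0.46% a WT summit, and none of the 7 held a WT summit. The 250 bases before the start are shown for Junb and Atf3, on the strand of the gene. Capitals mark the letters TGACG or their complement CGTCA, the first 5 bases of the cAMP response element. Junb lies at chr8:84978749-84978998 and Atf3 at chr1:191183334-191183583, both on the minus strand.
Junb: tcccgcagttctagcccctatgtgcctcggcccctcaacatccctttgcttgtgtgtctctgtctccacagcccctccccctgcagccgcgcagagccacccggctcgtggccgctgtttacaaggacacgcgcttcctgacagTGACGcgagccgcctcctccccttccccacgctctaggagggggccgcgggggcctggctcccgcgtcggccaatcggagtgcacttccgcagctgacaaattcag
Atf3: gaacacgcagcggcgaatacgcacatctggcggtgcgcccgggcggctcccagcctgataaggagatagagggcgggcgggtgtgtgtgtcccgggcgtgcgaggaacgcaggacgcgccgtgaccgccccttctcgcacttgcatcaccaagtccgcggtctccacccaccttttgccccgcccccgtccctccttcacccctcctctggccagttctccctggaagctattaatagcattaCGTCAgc
The 3KR summit was base 189 of the Junb sequence and base 195 of the Atf3 sequence. The marked letters begin 106 bases before the start of Junb and 7 bases before that of Atf3.

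The same letters stood in promoters without a summit. Fos had them 129 and 66 bases before its start. Fosb had them 60 bases before the start in the promoter table, 19310045, which lies 73 bp inside the gene as used for distances, so the letters are inside that longer gene. Jun had the letters TGACATCA, which fit TGACNTCA, 45 bases before its start. These stretches are given in the same way, to compare them with Junb and Atf3, at chr12:85473751-85473775 and chr12:85473814-85473838 on the plus strand for Fos, and on the minus strand at chr7:19310091-19310115 for Fosb and chr4:95052250-95052277 for Jun.
Fos, farther site: ggcgtagagtTGACGacagagcgcc
Fos, nearer site: ttccgcccagTGACGtaggaagtcc
Fosb: gagttgcgggTGACGcaagcgcggg
Jun: agcctcggggTGACATCAtgggctattt
TGACG was found on either strand in 4 of the 7 promoters and in 20.8% of all promoters. It is part of TGACGTCA, so any match to the longer letters is also a match to it. Among the 1712 promoters with a 3KR summit 44.5% held TGACG (95% Wilson interval 42.1 to 46.8), and among the 151 with a WT summit 32.5% did (25.5 to 40.3). Those with a 3KR summit also had a higher median content of G and C, 62.7% against 52.7% over all promoters, as did those with a WT summit, at 62%, and the part of base content in this share was not tested. The full sites TGACTCA and TGACGTCA were in 0 of the 7 promoters, and in 5.2% and 1.79% of all. With a WT summit these shares were 5.3% and 2.65%, and with a 3KR summit 4.56% and 4.85%. The p53 half-site, a 10-base unit that p53 reads in pairs, was also in 0 of the 7, against 8.36% of all promoters. Of promoters with a WT summit 15.9% held it (10.9 to 22.6), and of those with a 3KR summit 7.01% (5.89 to 8.32). A pair of such units with at most 13 bases between them was in 24 of 32851 promoters. Only exact matches to the unit RRRCWWGYYY were counted (R is A or G, W is A or T, Y is C or T). Sites with a mismatch were not counted, so these shares do not show that a promoter lacks a p53 site. TGACNTCA was in 1 of the 7, Jun, and in 8.83% of all. The CArG box, read by serum response factor, was in 0 of the 7 and in 1.63% of all. TGACG, TGACNTCA and the CArG box were added after seeing the data. All these letters describe windows of 300 bases only, and the distal sites were not searched. The intervals take promoters as independent, although some genes have several, so they may be too narrow.

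Fosl2, which encodes Fra-2, a Fos protein without the strong activation domain of Fos, had the most summits of the 8 genes in both lists. It had 3 in WT and 7 in 3KR, and no other protein-coding gene lies within its 50 kb window (chromosome 5, 32136472 to 32157840, plus strand). At least 3 WT summits were near 0.466% of all genes, and at least 7 3KR summits near 0.251% (55 genes). A pair of sites 14.4 to 15.3 kb upstream of the gene was in both lists. The WT summits of this pair, at 32121233 and 32122100, scored 11.1 and 14.3 and ranked 652 and 447 of 1668. The 3KR summits, at 32121210 and 32122109, lay 23 and 9 bp away and scored 6.27 and 34.8, ranks 5381 and 408 of 6753. A score here is −log10 of a p or q value given by the authors' peak caller, and it is ranked only within its own list. The site nearer to the gene was therefore the higher one of the pair in either list.

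The other Fosl2 sites were not shared. In the 3KR list 4 lay around the start: at 3340, 2640 and 905 bp upstream and at 32139843, which is 3371 bp into the gene. Their scores were 3.94, 37.6, 4.60 and 11.3. The summit 2640 bp upstream, at 32133832, was the highest at Fosl2 and ranked 361 of 6753. The nearest WT summit was at least 11032 bp from each of these 4. Downstream of the gene, WT had a summit at 32199355 (score 5.13, rank 1514 of 1668), 41515 bp from its end and nearer to Plb1, a phospholipase gene. The 3KR list had one at 32192130 (score 23.9, rank 822), 34290 bp from the gene end and 7225 bp from the WT summit.

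**Figure D3:**
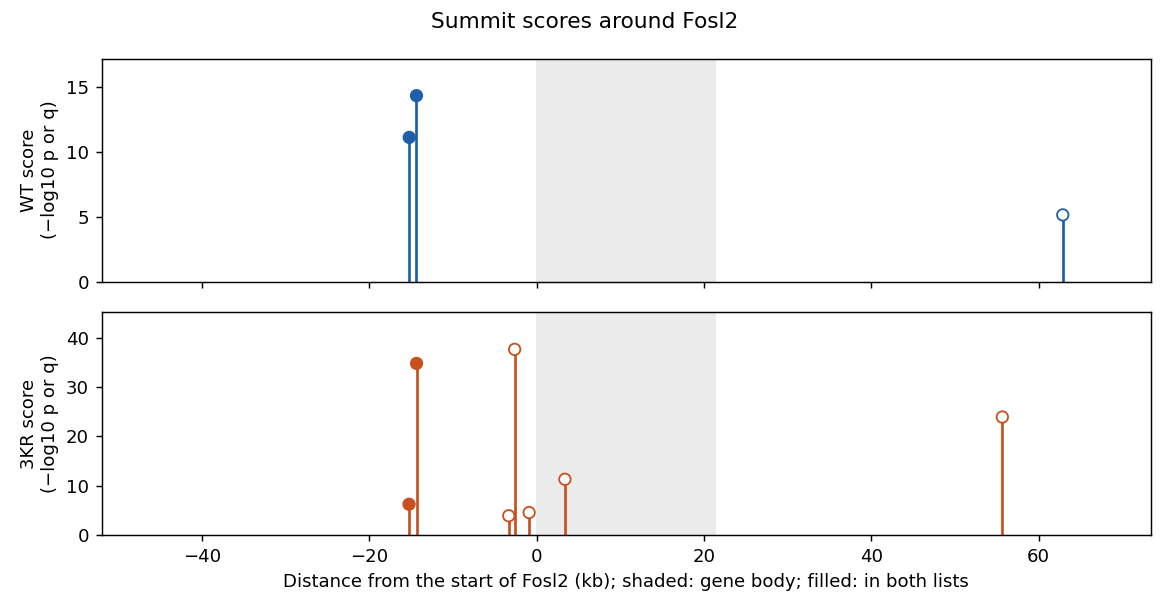
Score (−log10 p or q, not comparable between lists) of each WT summit (upper panel) and 3KR summit (lower panel) against its distance in kb from the start of Fosl2, with the gene body shaded and filled points for sites in both lists. The shared pair stands 14.4 and 15.2 kb upstream in WT, and the highest 3KR summit, at 37.6, stands 2.64 kb upstream with no WT summit beside it.

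The genes with the most similar counts of summits within 1, 10 and 50 kb in both lists were Ets2, Mid1 and Imp3. Their counts differed from those of Fosl2 by 3 in sum over the 6 counts. Ets2, which encodes an ETS transcription factor, had 2 WT and 7 3KR summits within 50 kb. Mid1 had 3 and 6, and Imp3 had 2 and 6. The likeness rests on 2 lists and whole-number counts only.

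Fos encodes the founding member of the family, the partner of Jun in the classical AP-1 dimer. It had 1 summit in each list, at the same place. At least 1 WT summit was within 50 kb of 11.6% of all genes, and at least 1 3KR summit of 42.2%. The WT summit at 85455302 on chromosome 12 and the 3KR summit at 85455331 were 29 bp apart, 18.6 kb upstream of the gene (85473890 to 85477274, plus strand). They scored 6.52, rank 1274 of 1668, and 19.7, rank 1176 of 6753. The site was thus low in the WT list and in the upper part of the 3KR list. The ranks themselves are close, and the 3KR list is 4.05 times as long. The contrast therefore does not compare the strength of binding between the genotypes. No other protein-coding gene lies within 50 kb of Fos, and the site is inside Gm38543, a long noncoding RNA gene.

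Fosb, another early-induced Fos gene (chromosome 7, 19302696 to 19310118, minus strand), had 0 WT summits and 3 in 3KR, all upstream. The nearest, at 19322629, was 12.5 kb away and scored 21.2 (rank 1080 of 6753). The next, at 19327290, scored 6.87 (rank 5006) and was slightly nearer to Ercc1. The highest of all 24 summits, at 19344828, scored 73.9 and ranked 100. It lay inside Ercc1, which encodes a subunit of a DNA repair nuclease, 34.7 kb from Fosb. The nearest WT summit was 149 kb from Fosb, and 7 other protein-coding genes lie in the window. Of all genes, 6.87% had at least 3 3KR summits at this distance.

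Fosl1 encodes Fra-1, the Fos protein most tied to migrating and transformed keratinocytes. Its surroundings on chromosome 19 (5447698 to 5455938) are dense, with 11 other protein-coding genes in the window. It had 0 WT summits, the nearest being 112 kb away. The 2 3KR summits, at 5433518 and 5488346, scored 7.48 and 9.39 (ranks 4648 and 3635 of 6753). Both lay nearer to other genes, the first to AI837181 and the second inside Mus81, which encodes a nuclease of DNA repair. Fosl1 was the only one of the 8 genes that was nearest to no 3KR summit. A count of 2 or more 3KR summits within 50 kb was found for 17.6% of all genes.

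Among the Jun genes, Jun itself (chromosome 4, 95049036 to 95052222, minus strand) stands alone in its window and had only distal upstream sites. Its WT summit, at 95068583, was 16.4 kb upstream, with a score of 6.53 and rank 1270 of 1668. The 3KR summits, at 95076572 and 95101007, were 24.4 and 48.8 kb upstream and scored 8.10 (rank 4303) and 50.03 (rank 196 of 6753). The WT site was 7989 bp from the nearer 3KR summit, so the lists shared no site at Jun. All 3 lay inside Junos, a long noncoding RNA gene. Over all genes, 11.6% had at least 1 WT summit and 17.6% at least 2 3KR summits within 50 kb. The high 3KR summit lies just inside the 50 kb limit. Just outside it were 3KR summits 51.9 kb from Jund, 52.9 kb from Fos, 53.4 kb from Jun and 55.4 kb from Fosb, and the first WT summit beyond the limit was 73 kb from Jund.

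Junb, which encodes the Jun protein that often opposes Jun, was the only one of the 8 genes with a WT summit within 10 kb (chromosome 8, 84976909 to 84978748, minus strand). That summit, at 84980415, was 1667 bp upstream and scored 5.57, rank 1437 of 1668. Within 50 kb, 11.6% of all genes had at least 1 WT summit. The 3KR list had 4 summits, and 2.97% of all genes had at least as many. They scored 5.13 at 84966162, 6.80 at 84976290, 5.15 at 84978810 and 7.48 at 84986224. The third is the summit in the promoter, 62 bp upstream of the start and 1605 bp from the WT summit. The second lay 619 bp beyond the other end of the gene. The first was inside Rnaseh2a, an RNase H2 subunit gene, and the last was nearer to Hook2. All 4 were in the lower part of the list, with ranks from 4648 to 6018 of 6753.

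Jund, the most broadly expressed Jun gene (chromosome 8, 70697739 to 70700616, plus strand), had 0 WT summits and 3 in 3KR. One was inside the gene at 70698943, 1204 bp from its start, and scored 13.7 (rank 2154 of 6753). The others, at 70667270 and 70673125, each scored 6.87 and lay nearer to Lsm4, an RNA-processing gene, the second of them 106 bp from it. The nearest WT summit was 73 kb away. As for Fosb, 6.87% of all genes had at least 3 3KR summits within 50 kb.

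Atf3, the stress-induced member (chromosome 1, 191170296 to 191183333, minus strand), also had summits in 3KR only. The promoter summit at 191183389 was 56 bp upstream and scored 11.9, rank 2749 of 6753. A further summit 10477 bp upstream, at 191193810, scored 19.7, rank 1176. Both were nearest to Atf3. The nearest WT summit was 672 kb away, the largest such distance among the 8 genes. As for Jun, 17.6% of all genes had at least 2 3KR summits within 50 kb.

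Site by site, the lists shared 3 places at AP-1 genes, those of Fos and of the Fosl2 pair. Summits counted as shared if they were at most 200 bp apart. The 3 are 50% of the 6 WT summits (95% Wilson interval 18.8 to 81.2) and 12.5% of the 24 3KR summits (4.34 to 31). Over whole lists 53.1% of WT and 13% of 3KR summits were shared, so sharing at AP-1 genes was near that of all summits. These intervals cover counting error only. At Jun, Junb and downstream of Fosl2 the nearest 3KR summit was 1605 to 7989 bp from the WT summit.

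By score, the WT summits stood low. Of the 6, 4 were in the lower 50% of the WT list, the median score was 6.53 against 9.42 for all WT summits, and 0 were in the highest 10%. The 2 in the upper 50% were the Fosl2 pair. In the 3KR list 11 of 24 were in the upper 50% and 4 in the highest 10%, in the windows of Fosb, Fosl2 and Jun. The one in the Fosb window lay inside Ercc1, and the one of Jun was 48.8 kb away. The median was 8.75, against 10.1 for all 3KR summits. All 4 summits in the highest 10% were more than 1 kb outside the AP-1 gene, as were 18 of all 24. The 6 3KR summits inside or within 1 kb of Fosl2, Junb, Jund and Atf3 scored between 4.60 and 13.7, and the 18 farther ones between 3.94 and 73.9, with medians of 9.07 and 8.75.

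**Figure D4:**
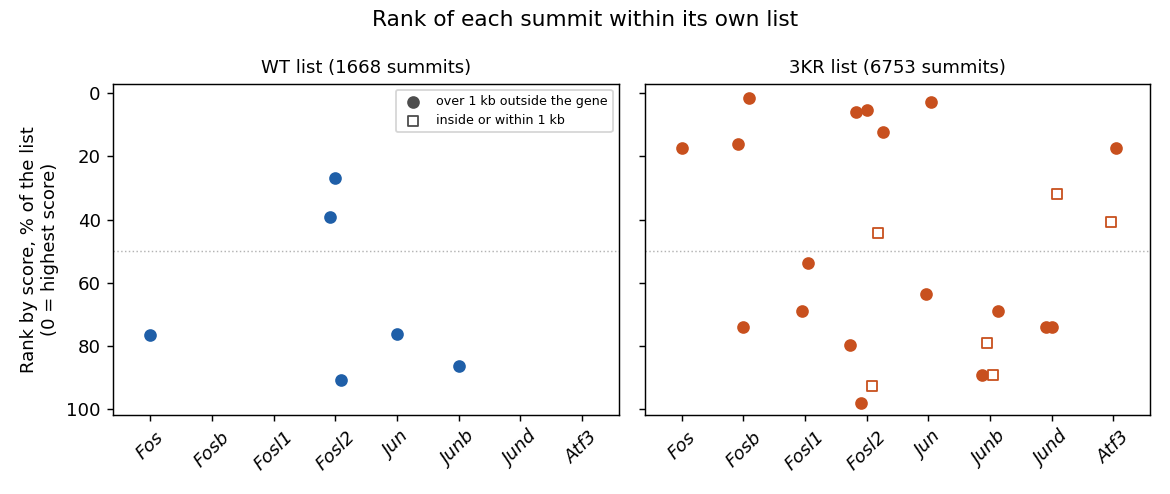
Rank by score of each summit as a percentage of its own list (0 is the highest score; summits of a gene are spread sideways for legibility), with open squares for summits inside or within 1 kb of the gene. In WT only the Fosl2 pair is above the middle of the list. In 3KR the highest points are in the windows of Fosb, Jun and Fosl2, all filled circles more than 1 kb outside the gene. The highest, in the Fosb window, lies inside Ercc1.

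Windows of 50 kb can hold other genes, so each summit was also given to its nearest protein-coding gene. By that measure 5 of the 6 WT summits and 16 of the 24 3KR summits belonged to the AP-1 gene. In WT Fos, Fosl2, Jun and Junb were each nearest to a summit, 4 of 8, against 5.04% of all protein-coding genes. In 3KR all but Fosl1 were, 7 of 8, against 19.5%. The windows of Fos, Fosl2 and Jun hold no other protein-coding gene, so a summit close to them had no other such gene nearer. Genes were not matched for this, and its part in these shares was not tested. With genes of any biotype included the WT count was 1, Junb (2.75% of all genes), and the 3KR count was 5 (10.5%). The sites of Fos, Jun and the Fosl2 pair then fell to the RNA genes Gm38543, Junos and Gm36665, which hold them.

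The rest of the pathway was read from 4 lists of other genes, 48 in all, at the same distance. In WT 3 of 48 had a summit within 50 kb, or 6.25%, and in 3KR 25 of 48, or 52.1%. The shares over all genes were 11.6% and 42.2%. Other bZIP proteins that pair with AP-1 members or share their sites had a WT summit at 1 of 14 genes and a 3KR summit at 9 of 14. Within 10 kb 6 of the 14 bZIP genes had a 3KR summit, or 42.9%, against 23.4% of all genes. Of these, Atf7 had one 28 bp outside the gene (score 14.3). Atf2, a partner of Jun, Maff, a small Maf gene, and Nfe2l2, the NRF2 gene of the oxidative stress response, had their highest within that distance inside the gene, with scores of 11.4, 10.7 and 8.99.

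Kinases that switch AP-1 on had a WT summit at 1 of 15 genes, Mapk8, which encodes the Jun kinase JNK1, 26.7 kb away and nearer to Arhgap22 (named after its values were seen). In 3KR 8 of 15 had one. Within 10 kb there were 4 of 15 in 3KR, or 26.7%, near the 23.4% of all genes. Among them were Mapk14, the p38 alpha gene, whose higher summit was 56 bp away (score 24.8, nearer to Slc26a8), and Map2k7 and Braf, with a summit inside the gene and scores of 12.8 and 11.4. Factors that act at the Fos and Jun promoters had a WT summit at 0 of 7 and a 3KR summit at 3 of 7. Elk4, a serum response cofactor gene, had one inside it with a score of 27.4 (rank 635 of 6753). All 3 were within 10 kb, against 23.4% of all genes. Mef2d had one 5.66 kb away (score 10.1), and Mef2a had a pair inside, each with a score of 5.13. Epidermal genes known to be driven by AP-1 had a WT summit at 1 of 12, Krt6a (named after its values were seen), whose WT summits are those beside Krt5. In 3KR 5 of 12 had one, and within 10 kb 2 of 12, or 16.7% against 23.4% of all genes. These were Ivl, the involucrin gene, whose summit was nearer to Smcp, and Cd44, both with a score of 4.58.

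Markers of basal epidermis, Krt5, Krt14, Itga6, Itgb4, Trp63 and Col17a1, had a summit within 50 kb in 6 of 6 cases in either list, against 11.6% of all genes in WT and 42.2% in 3KR. They show which regions have summits and say nothing of expression, so the sorted cell type could not be checked from these data. Within Trp63, which encodes the master regulator of these cells, the highest summits scored 49.7 in WT and 105 in 3KR and were 7 bp apart. Each stood above every AP-1 summit of its own list.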

How the data were processed

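p53 ChIP-seq was done on 6 libraries, 3 of each genotype by their titles. The authors aligned with BWA and called peaks with MACS2 on mm10, per the submitters' processing notes, which give no versions. The control and calling threshold, and how the 3 libraries of a genotype became 1 list, are not stated in the labels. The deposited lists give 1 base per summit and a value read here as −log10 of a p or q value, per the form of a MACS2 summit file. Of the 3KR summits, 75.3% have a value held by at least 50 summits of the list (WT 6.41%), so 3KR ranks are coarse.

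Gene positions and promoters came from RefSeq (GRCm38.p6). All biotypes were 49943 genes. Counting and drawing used Python 3.11.15 with pandas 2.3.3, numpy 2.4.6, scipy 1.17.1 and matplotlib 3.10.9. Gene windows were tested on simulated summits, and 200 of 200 planted windows were recovered. The members and lists were chosen with earlier results of these data known. Named genes are the 8 members, list genes with a summit within 10 kb (at most 4 per list and genotype, by score), nearer genes at each summit and the 3 genes most like Fosl2. Motifs were counted in promoters in place of windows around summits, since no genome sequence was used. No test compared the genotypes. Some genes that this rule takes are not reported here.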

Additional observations from a re-analysis of the deposited data

How the results depend on the processing

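Counts depended on the distance, the score and the list length. Of 33 alternatives 15 stayed within 1.5 times the reported count or inside its interval, and 18 moved. At 10 kb 1 AP-1 gene had a WT summit (1 summit) and 4 had a 3KR summit (9 summits). At 1 kb the counts were 0 genes in WT (0 summits) and 4 in 3KR (6 summits). In the top 50% of each list by score 1 gene and 2 summits were left in WT (6.14% of all genes had a summit). In 3KR 6 genes and 11 summits were left (26.7% of all genes). With only the 1668 highest 3KR summits, 5 genes and 8 summits were left, 1 gene at 10 kb and 0 at 1 kb, the last 2 being chosen after seeing the data. With all gene biotypes, 1 gene was nearest to a WT summit. Of the 48 pathway genes 1 had a WT summit (2.08%) and 15 a 3KR summit (31.2%) at 10 kb, against 5.04% and 23.4% of all genes. Merging close summits, 100 kb and summits nearest to the member gave counts within 1.5 times the reported ones. The 3 shared sites were 3 at 100 bp and 500 bp and 2 with the shortened list.

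No paired analysis was possible because each list combines the libraries of a genotype, and a single replicate has no values to block or leave out. The planned window of 50 bp around summits was not run. Depth is unknown, and a longer list gives more genes a summit.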

Other observations

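Scores in the 3KR list take few values. It has 1112 distinct scores over 6753 summits, against 983 over 1668 in WT. At the AP-1 genes 12 of the 24 3KR summits have a score that between 53 and 338 summits of the list share exactly. Over the whole 3KR list 75.3% of summits have a score held by at least 50. A WT summit at these genes shares its score with at most 3 entries, itself included. The sites of Fos and of Atf3 10477 bp upstream have the same 3KR score, 19.7, one of 85 summits. The highest sites, in the windows of Fosb (inside Ercc1) and Jun, and the promoter sites of Junb and Atf3 each have a score of their own.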
